A study of Mus musculus with 16 samples.

Results

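Gene expression was compared 72 h after transfection between TUBO cells given a hairpin inhibitor of the microRNA miR-135b, called anti-miR-135b here, and TUBO cells given a negative control hairpin, which the labels call scrambled. The comparison takes every sample labelled with these arms and this time, 3 control samples (numbered 7, 8 and 9 in the labels) and 3 anti-miR-135b samples (16, 17 and 18), 6 of the 16 samples of the study. TUBO is a mouse mammary carcinoma line from a BALB-neuT animal, a strain whose mammary glands carry an activated rat ErbB2 (neu) transgene, and the same line served both arms. Each arm received 200 nM of its hairpin with Lipofectamine 2000. Total RNA was isolated with a mirVana kit and hybridised as biotin-labelled cRNA to Illumina bead arrays, 1 array a sample. The remaining 10 samples are the same 2 arms at 24 h (n = 2 each) and at 48 h (n = 3 each), and only the 48 h samples are set beside the 72 h result. A single tumour line was used, and the labels do not say whether the samples of a group were grown and transfected separately. Each p-value rests on the spread within the groups of all 16 samples, drawn towards the spread over all probes. That spread may be technical. All 6 samples at 72 h shared a chip, with the controls in its first positions, so the effect of position on the chip cannot be told apart from that of the inhibitor.

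MicroRNAs are short RNAs that guide Argonaute proteins to messenger RNAs, mostly through pairing of the seed, bases 2 to 8 of the microRNA. A paired message is usually translated less and degraded faster, so a hairpin that occupies the microRNA is known to release its targets. The miR-135 family has a and b members, and in other systems it has been tied to BMP and Wnt signalling, to Hippo signalling and to invasion of carcinoma cells. The arrays measured messages and not the microRNA itself, so the extent of its inhibition was not measured. The sequences below show the precursor that carries miR-135b, its 3′ arm and the related miR-135a-5p, with seed letters in capitals; mature miR-135b-5p is named only and not printed here. They are from RefSeq on GRCm38.p6, with the Mir135b hairpin at chr1:132198088-132198184 (plus strand), its 3′ arm at chr1:132198142-132198163 (plus strand) and mmu-miR-135a-5p at chr9:106154140-106154162 (plus strand). In the hairpin the capitals mark the only copy of the miR-135a-5p seed.
Mir135b hairpin: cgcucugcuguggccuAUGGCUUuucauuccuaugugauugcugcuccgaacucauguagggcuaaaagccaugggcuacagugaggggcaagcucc
mmu-miR-135a-5p: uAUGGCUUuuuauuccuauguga
mmu-miR-135b-3p: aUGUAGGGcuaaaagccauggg

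Values below are log2 intensities after background correction and quantile normalisation, and a difference is the anti-miR-135b mean less the control mean at 72 h unless another time is named. The median probe intensity of the 6 arrays lay between 296.3 and 327.4, and Pearson's r between arrays lay between 0.926 and 0.973 over the probes kept. Control sample 9 correlated less with its own group (mean r 0.954) than with the anti-miR-135b samples (0.961), while the other 5 samples were closer to their own group. Against the labelled cell type, 7 of 11 mammary epithelial markers with a probe lay above the 90th percentile of all probes, with Krt8, Krt18, Cldn3, Esrp1, Cldn4, Cdh1 and Krt7 among them, and the Krt19 probe at percentile 1.3 was the exception furthest from them. Their summed intensity before normalisation was 45843 to 61100.5 in the controls and 63091.9 to 78500 under anti-miR-135b. After quantile normalisation the 10 kept markers had a median difference of −0.02, and with median scaling of 0.28. The part of this in the results was not tested. Of the leukocyte markers 2 of 13 passed the filter on dim probes, Cd14 at percentile 99.8 and Ms4a1 at 56.3, and the defining marker Ptprc, at 40.3, did not. Of the fibroblast and endothelial markers 4 of 16 passed (Flt1 at percentile 91.4, its other probe at 5.4), and of the adipocyte markers 3 of 9. Their summed intensities overlapped between the arms for leukocytes (10900.3 to 43358.5 in the controls and 17424.6 to 57745.7 under the inhibitor) and for fibroblasts and endothelium (4626.2 to 6452.3 and 4742.5 to 5920.2). In bulk samples such as these, fewer cells of a type and less RNA per cell cannot be told apart.

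At 72 h no transcript passed the test over the whole array. limma called 0 of 12848 probes (0%) at a Benjamini-Hochberg adjusted p of 0.05, and the smallest adjusted p was 0.14. At an unadjusted p under 0.05 there were 916 probes (7.13%), against 642 that this threshold gives by chance, with 577 higher under anti-miR-135b (4.49%) and 339 lower (2.64%). In 721 probes (5.61%) such a p went together with samples that did not overlap, 462 higher (3.6%) and 259 lower (2.02%). These 721 are called separated below. With each array scaled on its median in place of quantile normalisation, 616 probes were separated and 90.9% of them were higher, against 64.1% here, so the balance of directions depended on the scaling. The count at an unadjusted p under 0.05 was 752 (5.85%) with that scaling and 1112 (8.66%) without control 9. Without control 7 it was 618 (4.81%), below the 642 given by chance. With 3 samples against 3, an exact permutation test cannot go below 0.1.

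Most differences were small. Over all probes they ran from −1.24 to 1.43 with a median of −0.01, and the 5th and 95th percentiles were −0.43 and 0.52. Only 42 probes (0.327%) differed by more than 1, a 2-fold change of the normalised signal. The largest, at 1.43, was a probe with no gene name in the annotation used here. The median standard error of a difference was 0.23, and the median SD between replicates was 0.24 in the controls and 0.22 under anti-miR-135b. Bright probes held more of the unadjusted hits, from 4.3% between the 50th and 60th percentiles of signal to 12.2% above the 90th, where 215 were higher and 96 lower.

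The labels pair no samples across the arms. Taken in label order, deviations from the group mean correlated at 0.48 for samples 7 and 16, 0.14 for 8 and 17, and 0.35 for 9 and 18. A block on this order within the 72 h samples left 0 calls, while a block on it at all times, added after seeing the data, gave 58 calls, 47 higher and 11 lower. Under that block Smad1 had a limma adjusted p of 0.018, Ppp3ca of 0.024 and Mid1 of 0.028. Since the pairing was read from the data, the results below keep to the fit without it unless the block is named. The words "higher" and "lower" describe the order of samples that did not pass the test.

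**Figure D1:**
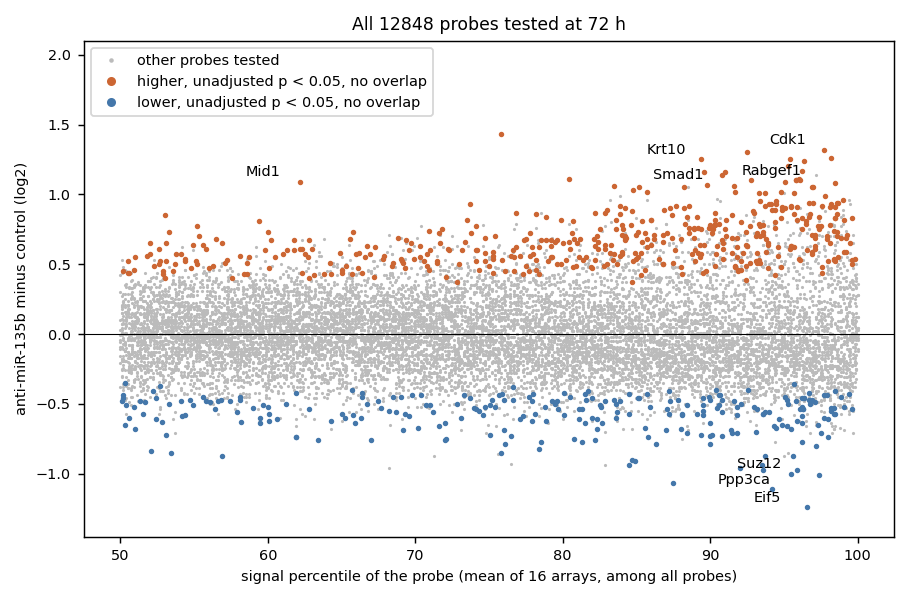
Difference at 72 h (anti-miR-135b minus control, log2) of the 12848 kept probes against the percentile of their mean signal over all arrays. The coloured points are the 721 separated probes. Most points lie between −0.43 and 0.52, and no probe passed the adjusted threshold.

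Genes named by the smallest p or by the largest difference were taken only from probes whose samples did not overlap. Their lack of overlap was thus set by the choice. Among the genes with the smallest p, those higher under anti-miR-135b included several regulators of signalling and of protein turnover. Smad1, a receptor-activated Smad that carries BMP signals to the nucleus, measured 9.3, 9.26 and 9.15 in the controls and 10.27, 10.4 and 10.27 under anti-miR-135b. The groups were nearly a unit apart and tight within themselves. The difference was 1.07 (SE 0.18, limma adjusted p = 0.14), the smallest p of all probes with a gene name. The other kept Smad1 probes differed by 0.13 and −0.01, so the gene's probes disagreed. Smad1 was also 1 of 2 probes called without background correction (limma adjusted p = 0.037). The same held in the authors' deposited value table refitted with limma (0.036). With array weights, an estimate that stopped before it converged, it was again 1 of 2 (0.012). The second probe called in each of these settings was that of the RIKEN clone 2700062C07Rik. Over the other planned settings the adjusted p of Smad1 ran from 0.1 with a stricter filter to 0.72 without control 7, with 0.28 for an offset of 16 and 0.6 with median scaling.

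Rabgef1, an exchange factor for the endosomal GTPase Rab5 that also has ubiquitin ligase activity, measured 9.82, 10.36 and 10.48 in the controls. Under anti-miR-135b it measured 11.1, 11.27 and 11.59. All inhibitor samples lay above all controls, with a difference of 1.1 (SE 0.22, limma adjusted p = 0.36). Ulk1, the kinase that starts autophagy, measured 8.97, 9.26 and 9.13 against 9.99, 10.1 and 9.98. The groups did not overlap and differed by 0.9 (SE 0.2, limma adjusted p = 0.4), whereas its other probe differed by 0.2. Commd9, a subunit of the COMMD complex that works in endosomal recycling, measured 8.6, 9.09 and 8.85 against 9.64, 9.62 and 9.74. It differed by 0.82 (SE 0.18, limma adjusted p = 0.42), again with no overlap.

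Genes of RNA processing and translation formed part of the same set. Srsf6, an SR protein of pre-mRNA splicing, measured 8.67, 9.22 and 9.18 in the controls and 9.96, 10.19 and 10.1 under the inhibitor. Its difference was 1.06 (SE 0.23, limma adjusted p = 0.4), without overlap. Alyref, an adaptor for mRNA export, measured 9.54, 9.73 and 10.52 against 11, 10.94 and 11. Control 9 was the control nearest to the inhibitor samples, and the difference was 1.05 (SE 0.24, limma adjusted p = 0.42), with 0.08 at the other Alyref probe. Adat2, a subunit of the tRNA adenosine deaminase, measured 8.37, 8.55 and 8.42 against 9.33, 9.11 and 9.46, a difference of 0.86 (SE 0.2, limma adjusted p = 0.42). Srprb, the membrane-anchored subunit of the signal recognition particle receptor, measured 9, 9.1 and 9.33 against 10.59, 10.53 and 10.23. The groups of both genes were clearly apart, and Srprb differed by 1.3 (SE 0.31, limma adjusted p = 0.45), with −0.03 at its other probe. Hdac5, a class IIa histone deacetylase, measured 10.13, 9.64 and 10.03 against 10.93, 11.11 and 10.83. Its difference was 1.02 (SE 0.25, limma adjusted p = 0.45), and its 2 other probes differed by −0.01 and −0.04.

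The study itself names Mid1 and Mtch2 as targets of miR-135b. Mid1, a ubiquitin ligase on microtubules that directs the breakdown of the phosphatase PP2A, measured 6.48, 6.8 and 6.82 in the controls and 8.24, 8.06 and 7.08 under anti-miR-135b. Inhibitor sample 18 lay only just above the controls. The difference was 1.09 (SE 0.25, limma adjusted p = 0.42), and without sample 18 it was 1.45 and passed (limma adjusted p = 0.036). Without sample 16 it was 0.87 (limma adjusted p = 0.8), and the size was 0.56 without background correction and 0.54 in the authors' deposited value table. The gene was dim, at percentile 62.2 of all probes. Mtch2, a protein of the outer mitochondrial membrane, was read by 3 probes that disagreed, with differences of 1.05, −0.12 and −0.17. The first measured 7.03, 8.42 and 8.36 against 8.82, 8.93 and 9.21, with no overlap and control 7 far below the rest (SE 0.31, limma adjusted p = 0.52).

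The largest differences among named genes also took in a cell cycle kinase and a keratin. Cdk1, the kinase that drives entry into mitosis, measured 10.74, 10.43 and 10.97 in the controls and 12.24, 12.01 and 11.83 under anti-miR-135b. The difference of 1.32 (SE 0.4, limma adjusted p = 0.53) was the largest of a named gene with separated samples, and at 48 h it was 0.01. Krt10, a keratin of differentiating squamous epithelium, measured 8.73, 8.98 and 8.88 against 10.35, 10.07 and 9.92. It differed by 1.25 (SE 0.34, limma adjusted p = 0.49) with a gap of nearly a unit between the groups. Sf3b3, a subunit of the U2 snRNP splicing factor SF3b, measured 9.38, 9.27 and 10.24 against 10.72, 10.96 and 10.94. Control 9 was again the highest control, and the difference was 1.25 (SE 0.3, limma adjusted p = 0.45). The probe named Rnu6, for the U6 spliceosomal RNA, differed by 1.26 (SE 0.3, limma adjusted p = 0.45). U6 has many near-identical copies, so the source of that signal is uncertain.

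**Figure D2:**
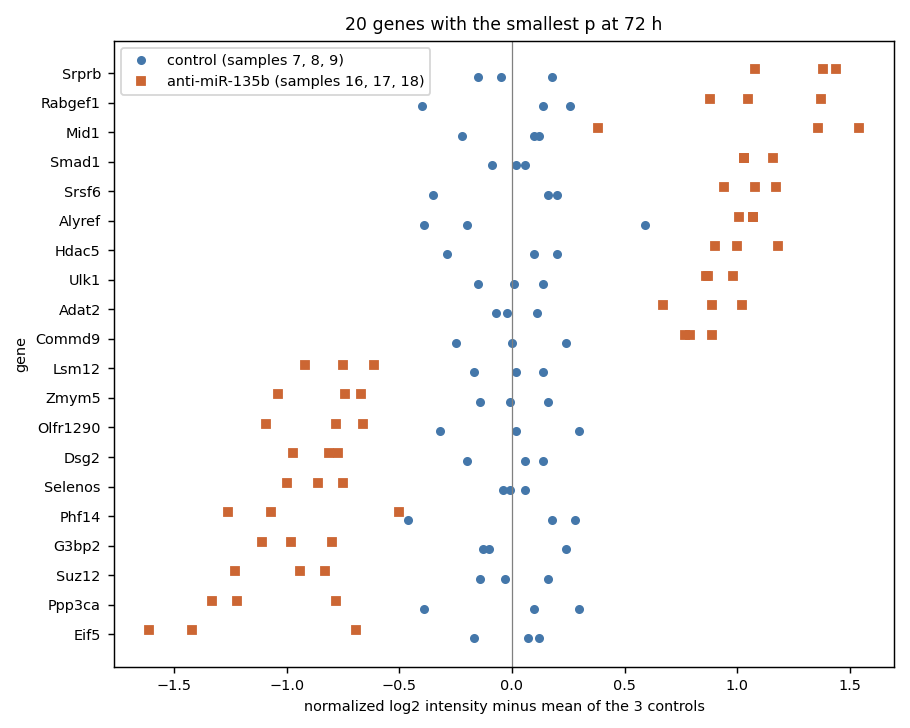
Normalised log2 intensity, less the mean of the 3 controls, of 20 genes in each of the 6 samples at 72 h. Circles are controls and squares are anti-miR-135b. The genes have the smallest p (10 per direction) among those whose samples do not overlap, so the lack of overlap was set by the choice. Mid1 has 1 inhibitor sample, at 7.08, close to the highest control, at 6.82.

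On the lower side, Ppp3ca, the catalytic alpha subunit of the calcium-dependent phosphatase calcineurin, was lower at all of its kept probes. Its first probe measured 11.23, 11.03 and 10.54 in the controls and 9.6, 10.15 and 9.71 under anti-miR-135b. All inhibitor samples lay below all controls, with a difference of −1.11 (SE 0.23, limma adjusted p = 0.36). The other 2 kept probes differed by −0.71 and −0.57, each at an unadjusted p under 0.05. At 48 h the first probe differed by −0.48.

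Several of the lower genes act on translation and in RNA granules. G3bp2, a core protein of stress granules, measured 11.45, 11.08 and 11.11 in the controls and 10.41, 10.23 and 10.1 under the inhibitor. The groups were clearly apart and differed by −0.97 (SE 0.2, limma adjusted p = 0.38), with −0.17 and −0.1 at the other probes. Eif5, which triggers GTP hydrolysis on eIF2 at the start codon, measured 11.05, 11.29 and 11.34 against 9.61, 10.53 and 9.8. Sample 17 was the nearest to the controls, and the difference was −1.24 (SE 0.32, limma adjusted p = 0.45), with −0.74 and −0.23 at the other probes. Lsm12, an RNA-binding protein of the Lsm family, measured 9.05, 8.74 and 8.93 against 8.16, 8.3 and 7.99. Its difference was −0.75 (SE 0.2, limma adjusted p = 0.49). Its second probe was at −0.52, and the others at 0.2 and −0.19.

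Chromatin proteins, a cell adhesion molecule and an ER protein completed the lower set. Suz12, a core subunit of the polycomb repressive complex PRC2, measured 11.48, 11.29 and 11.18 in the controls and 10.38, 10.49 and 10.09 under anti-miR-135b. The groups lay clearly apart, with a difference of −1 (SE 0.22, limma adjusted p = 0.4). Phf14, a PHD finger protein that binds histone H3, measured 9.02, 9.76 and 9.66 against 8.22, 8.98 and 8.41, a difference of −0.94 (SE 0.25, limma adjusted p = 0.49) and of −0.7 at 48 h. Dsg2, a desmosomal cadherin, measured 8.78, 8.86 and 8.52 against 7.75, 7.95 and 7.91. It differed by −0.85 (SE 0.2, limma adjusted p = 0.42), and its other probes by −0.06 and −0.37. Selenos, a selenoprotein that helps to export misfolded proteins from the ER, measured 10.61, 10.68 and 10.58 against 9.87, 9.76 and 9.62. The controls were within 0.1 of each other, and the difference was −0.87 (SE 0.23, limma adjusted p = 0.45), with −0.45 at the other probe. The last of the 10 by p were Zmym5, a zinc finger protein (−0.82), and the olfactory receptor gene Olfr1290 (−0.84), whose probe was dim, at percentile 52.1. By size, Irx3, a homeobox transcription factor, measured 12.43, 11.96 and 11.69 against 10.87, 11.37 and 10.82. It differed by −1.01 (SE 0.28, limma adjusted p = 0.49), without overlap. Dek, a chromatin protein, differed by −1.07 (SE 0.4, limma adjusted p = 0.61) and by −1.43 at 48 h, but its other probes were at −0.43 and 0.23.

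Probes of 1 gene often did not read alike. Of 1547 genes with exactly 2 kept probes, 837 (54.1%) had the same sign at both, and the differences of the 2 probes correlated at r = 0.14 across genes, which are not independent replicates. Where 1 of the 2 was an unadjusted hit, the other had the same sign in 112 genes and the opposite sign in 95. Where 2 or more probes of a gene were unadjusted hits in 1 direction, the reading does not rest on 1 probe. All probes share the same 6 samples, however, so this says nothing more about the cultures. Of 2220 genes with 2 or more kept probes, 10 were such genes higher and 12 lower, and 5 had hits in both directions.

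The genes higher at 2 probes included 2 subunits of the proteasome core. Psma7, an alpha-ring subunit, measured 11.34, 11.73 and 11.88 in the controls and 12.36, 12.42 and 12.34 under anti-miR-135b at 1 probe. The inhibitor samples were nearly level and above all controls, with differences of 0.73 and 0.91 at the 2 probes (limma adjusted p = 0.52 and 0.6). Psmb2, a beta-ring subunit, measured 9.32, 10.04 and 10.12 against 10.4, 10.41 and 10.94 at its separated probe. The differences were 0.76 and 0.69 (limma adjusted p = 0.6 and 0.61), and the samples of the second probe overlapped. Rps3, a protein of the small ribosomal subunit with DNA repair functions, measured 13.05, 13.78 and 13.47 against 14.42, 14.36 and 13.99. Its probes differed by 0.83 and 0.53 (limma adjusted p = 0.45 and 0.6), both without overlap. Ribosomal protein genes have near-identical copies elsewhere in the genome, which these probes may also read. Gtf3a, the transcription factor TFIIIA of 5S rRNA genes, differed by 0.8 and 0.64. Sort1, the sorting receptor sortilin, was at 0.89, 0.65 and 0.27. Zmpste24, Eipr1 and Sidt2 had 2 hits higher beside other probes of the opposite sign.

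The genes lower at 2 or more probes that the naming rule took, beside Ppp3ca, Eif5 and Lsm12, were Zfp131, Zfp292, Cald1, Ceacam1, Pabpc1, N6amt1 and Wdr45b. Zfp131, a BTB zinc finger transcription factor, measured 10.24, 10.33 and 10.28 in the controls and 9.16, 9.68 and 9.1 under anti-miR-135b. The controls were within 0.1 of each other and above all inhibitor samples, with differences of −0.97 and −0.7 at its probes (limma adjusted p = 0.53 and 0.61). Zfp292 differed by −0.94 and −0.62, but control 9 overlapped with inhibitor sample 17. Cald1 (caldesmon, which binds actin and myosin) differed by −0.77 and −0.65, with the samples of the second probe overlapping. Ceacam1, an adhesion molecule of epithelia, differed by −0.65 and −0.64, with overlap at both. Pabpc1, the cytoplasmic poly(A)-binding protein, differed by −0.57, −0.76 and −0.41 at 3 probes. The brightest of these measured 14.11, 14.18 and 13.88 against 13.39, 13.89 and 13.19, which overlap at sample 17. N6amt1, a methyltransferase, differed by −0.57 and −0.53, and Wdr45b, a WD-repeat protein of the autophagy machinery, by −0.48 and −0.54, with no overlap at these probes. The other Wdr45b probes were at −0.23 and 0.17.

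Most of these differences were larger in size at 72 h than at 48 h, which follows in part from choosing the genes by their p at 72 h. The 48 h samples lay on another chip. Each difference was taken within a chip, but time and chip changed together. Of the 721 separated probes 445 had the same sign at 48 h and 276 the opposite sign. At 48 h 50 were also unadjusted hits of the same sign, and 9 of the opposite sign. The same counts over all probes are not given here, so no background stands beside them. The difference between the times had 0 calls of 12848 (0%) by limma, with a smallest adjusted p of 0.85, and 706 probes at an unadjusted p under 0.05 (5.5%). Smad1 differed by −0.15 at 48 h and by 1.07 at 72 h (limma unadjusted p of the difference 0.00017, adjusted p 0.85). At the other Smad1 probes the difference at 72 h less that at 48 h was −0.08 and 0.14. G3bp2 and Phf14 were already lower by a similar size at 48 h, with −0.65 and −0.7. Rbm39, a splicing factor, differed by −0.79 at 72 h and −0.81 at 48 h, and Rasa1, a GTPase-activating protein that turns Ras off, by −0.87 and −0.99. Trps1, a GATA-type repressor of luminal cells, differed by −0.79 and −1.04. Sqstm1, the autophagy adaptor p62, was higher at both times, by 0.86 and 1.07. Other list members changed sign, though they were not separated at 72 h. Among them were Srp54a (−0.55 at 72 h and 1.13 at 48 h), Kpna2 (−0.49 and 0.86) and Hnrnpa1 (−0.75 and 0.87).

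**Figure D3:**
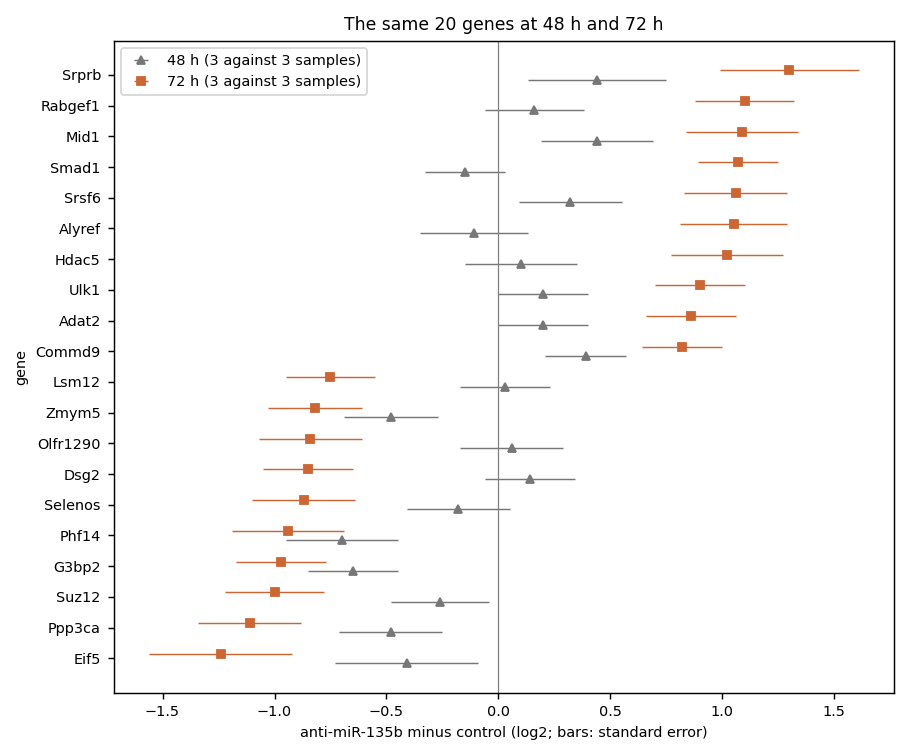
Difference between anti-miR-135b and control (log2, bars are the standard error) at 48 h and at 72 h for 20 genes. These have the smallest p at 72 h among genes whose samples do not overlap at that time. Smad1 (−0.15 and 1.07) and Alyref (−0.11 and 1.05) are among the genes with opposite signs, and Phf14 (−0.7 and −0.94) and G3bp2 (−0.65 and −0.97) are low at both.

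Gene groups were described with the brightest kept probe of each gene. The lists were chosen with earlier results of these data known, and several hold genes named above. Over all 9032 named genes, 4369 were higher and 4663 lower, the median difference was −0.01, and 552 were separated (6.11%), 369 higher (4.09%) and 183 lower (2.03%). With each array scaled on its median the middle of all genes moved to 0.09, so a list with a small median has no settled sign. Of 31 lists with at least 5 genes, 6 had a median above 0 here and 23 with median scaling.

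Published targets of miR-135 in other systems were lower more often than higher. Of 14 measured, 3 were higher and 11 lower, with a median of −0.23 at 72 h and −0.24 at 48 h, and none was separated. Tgfbr1, the type I TGF-beta receptor, measured 10.13, 10.61 and 10.24 in the controls and 9.84, 9.85 and 9.61 under anti-miR-135b. Smad5, a BMP-responsive Smad, measured 9.78, 9.67 and 9.56 against 9.28, 9.44 and 9.25. The samples of both genes did not overlap, with differences of −0.56 and −0.35, but neither reached an unadjusted p of 0.05. Btrc, the F-box protein that directs beta-catenin breakdown, was 1 of the 3 higher, with a difference of 0.41 and no overlap. The median kept its sign under every alternative run, with −0.11 at median scaling and in the authors' deposited value table.

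In the BMP and Smad list, 11 of 18 genes were higher and 7 lower (median 0.05). Besides Smad1 on its separated probe, which is not the brightest Smad1 probe in this list, Id2, a helix-loop-helix target of BMP signals, was lower. It measured 11.32, 11.23 and 11.43 against 10.99, 10.69 and 10.78, a difference of −0.5 with no overlap, and −0.21 at its other probe. In the Wnt list 10 of 19 were higher (median 0.07) and 1 was separated, the receptor Fzd6 at −0.47. In the Hippo list 4 of 15 were higher and 11 lower (median −0.16), with 1 separated, Mob1a, a kinase activator, at −0.67.

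Calcineurin genes were mixed. Of 12, 3 were higher and 9 lower, with a median of −0.16, and beside Ppp3ca the regulator Rcan3 was separated at 0.78. Of 23 polycomb genes 8 were higher and 15 lower, and 4 were separated, Suz12 among them, against 6.11% of all genes. Ezh2, the methyltransferase of PRC2, measured 8.93, 9.1 and 9.41 in the controls and 7.79, 8.69 and 8.27 under anti-miR-135b. Like Suz12 it was lower without overlap, at −0.9 (SE 0.27, limma adjusted p = 0.53), although the second Ezh2 probe was at 0.14. The other PRC2 proteins in the list did not follow. They were Eed (0.01), Rbbp7 (−0.01), Aebp2 (−0.05), Mtf2 (0.13) and Ezh1 (0.13). Cbx3, a heterochromatin protein, was at −0.74 on a dim probe (percentile 61.9). Pcgf1, a subunit of a PRC1 complex, was the separated gene that was higher, measuring 11.54, 10.66 and 9.96 under the inhibitor and 9.42, 9.82 and 9.44 in the controls, a difference of 1.16 (SE 0.4).

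In the stress granule list 7 of 16 were higher and 9 lower, with a median of −0.2 that was −0.01 without sample 18 and −0.05 with median scaling. Beside G3bp2, the RNA helicase Ddx3x was separated at −0.59, and the granule protein Tia1 and the scaffold Ubap2l at 0.73 and 0.58 the other way. The Tia1 probe was dim, at percentile 60. The 27 splicing genes split 11 and 16, with 1 separated in each direction, Srsf6 and Rbm39. Of 32 autophagy genes 14 were higher and 18 lower, and both separated genes were higher, namely Ulk1 and Sqstm1. Sqstm1 measured 11.04, 11.7 and 11.7 in the controls and 12.15, 12.46 and 12.4 under the inhibitor. Of 30 genes of endosomes and Rab GTPases 11 were higher and 19 lower, with 3 and 4 separated, against 6.11% of all genes. Rabgef1 and Commd9, named above, are members of this list. Snx2, a sorting nexin, was at 0.83 and Vps26a, a retromer subunit, at −0.65, and the other probes of both genes differed by 0.27 or less in size.

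ER stress genes were mostly lower, with 6 higher and 23 lower of 29 and a median of −0.35, against −0.05 at 48 h. The median was −0.16 without control 7, −0.16 with median scaling and −0.21 in the authors' deposited value table, and it stayed below 0 in every alternative run. The separated ones were Dnajb9, an ER co-chaperone, and Pdia3, an ER disulfide isomerase. Dnajb9 measured 10.44, 10.38 and 10.16 in the controls and 9.88, 9.89 and 9.76 under anti-miR-135b. Pdia3 measured 12.2, 12.36 and 12.42 against 11.67, 11.9 and 11.84. Both sets of samples are apart, by −0.48 and −0.53, while the samples of Hsp90b1, the ER Hsp90, overlapped (−0.69). Hypoxia and glycolysis genes split 6 and 16 (median −0.26), but with median scaling the list stood at 0.03, and it ran from −0.46 without control 9 to −0.13 without control 7. Hk2, a hexokinase, was its only separated gene, higher with 11.59, 12.28 and 11.73 against 11.1, 11.45 and 11.25.

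Interferon genes were the list with the highest median, 0.28 at 72 h and 0.28 at 48 h, with 24 of 32 higher and 8 lower. Only Tap1, a peptide transporter, and Irf7, an interferon regulatory factor, were separated, both on dim probes (percentiles 65.3 and 64.9). Irf7 measured 6.64, 6.79 and 7.26 in the controls and 7.34, 7.63 and 7.47 under anti-miR-135b. The mean level of the list was 7.75, 7.88 and 8.3 in the controls and 7.89, 8.37 and 8.55 under the inhibitor. The groups thus overlapped. Each inhibitor sample lay above the control at the same place in label order, but the labels do not give that pairing and it adds no support. Gbp2, an interferon-induced GTPase, measured 7.34, 8.52 and 9.33 against 8.23, 9.72 and 10.11. Its samples overlapped, and the difference of 0.96 had a limma adjusted p of 0.72. With the block at all times, which was added after seeing the data, the limma adjusted p was 0.025, which adds no support either. The median of the list was 0.16 without control 7, 0.46 without sample 16 and 0.16 without background correction. The NF-kB list, with 12 of 22 higher, had a median of 0.08, from −0.18 without control 7 to 0.34 without sample 16, and 0 separated genes. Heat shock genes split 10 and 4, with a median of 0.18 that was 0.06 without control 7, and the co-chaperone Stip1 was the separated one, at 0.69.

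Cell cycle genes were a further group with separated members in 1 direction. Of 23 S phase genes 15 were higher and 8 lower, with a median of 0.12 that was 0 without control 7 and 0.3 without control 9, and 4 were separated, all higher, a share of 17.4% against 6.11% of all genes. These were Chaf1a, a histone chaperone of replicating DNA (0.81), Ccne2, a cyclin of S phase entry (0.69), Pole, a DNA polymerase subunit (0.55), and Cdc45, a helicase factor (0.45). Chaf1a measured 8.14, 8.01 and 8.41 in the controls and 8.67, 9.13 and 9.18 under anti-miR-135b. The G2 and M phase genes did not follow, with 9 higher and 11 lower (median −0.03), although Cdk1 and the spindle checkpoint protein Mad2l1 (0.89) were separated. Genes of p53 and apoptosis split 9 and 14 (median −0.14). The separated ones were 2 genes that promote cell death, both higher. Htra2, a mitochondrial protease, measured 7.63, 7.71 and 8.18 against 8.69, 8.57 and 8.78, and Bad, a BH3-only protein, 9.55, 8.99 and 9.87 against 10.27, 10.6 and 10.

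In the pathway of the oncogene that drives these tumours, 11 genes of the ErbB list were higher and 12 lower (median −0.01). Egfr, the ErbB1 receptor, was at 0.72 and Araf, a Raf kinase, at 0.84, both separated, but the other Egfr probes were at 0.14 and −0.05 and the other Araf probe at 0.14. Rasa1 was the separated gene that was lower. In the PI3K and mTOR list 8 were higher and 9 lower, and 5 of 17 were separated (29.4%, against 6.11% of all genes). Pik3r1, the regulatory subunit of PI3K, measured 10.66, 10.09 and 9.97 in the controls and 9.78, 9.6 and 9.15 under anti-miR-135b. It differed by −0.73, and by −0.54 at its second probe. Eif4ebp1, the translation repressor that mTOR phosphorylates, was at −0.57, Rheb, the GTPase that activates mTOR, at −0.46, Tsc2, the inhibitor of Rheb, at 0.51 and the mTOR subunit Mlst8 at 0.75. The other Mlst8 probes were at −0.06 and −0.1. No probe named Erbb2 was in the tables used here.

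Epithelial and lineage genes did not move as a block. Of 19 junction genes 7 were higher and 12 lower (median −0.07), with Dsg2 and Ctnna1, the adherens junction protein alpha-catenin (−0.43), separated. Cdh1 (E-cadherin) measured 12.38, 11.97 and 12.14 in the controls and 11.5, 11.83 and 11.93 under anti-miR-135b. The samples did not overlap, and the difference of −0.41 had an unadjusted limma p of 0.064. Genes of mesenchymal transition split 2 and 9 (median −0.15), with none separated, and genes of invasion and matrix split 10 and 14, with the sheddase Adam17 separated at −0.44. In the mammary lineage list 5 were higher and 11 lower (median −0.06). Its separated genes went both ways, with Trps1, named above, lower at −0.79. Tfap2a, a transcription factor of luminal cells, measured 9.86, 10.48 and 10.23 against 11.11, 11.42 and 11.3, a difference of 1.09 without overlap, and 0.13 at its other probe. Muc1, a mucin of the apical membrane, was at 0.82, with 0.03 at both other probes.

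Metabolic and housekeeping lists lay near the middle of all genes. Medians were −0.13 for 23 cholesterol and lipid genes, −0.04 for 34 genes of oxidative phosphorylation, −0.04 for 35 genes of N-glycosylation, −0.03 for 19 NRF2 genes, −0.08 for 18 genes of small RNA pathways and −0.03 for 14 genes around Mid1 and PP2A. Separated genes of the lipid, oxidative phosphorylation and N-glycosylation lists went both ways. Scd2, a fatty acid desaturase, was at −0.69 and Mvd, an enzyme of the mevalonate pathway, at 0.66. Of the complex II subunits Sdhb was at 0.79 and Sdhd at −0.46. The glycosyltransferase subunits Alg5 and Alg14 were at 0.91 and −0.52, with −0.22 and −0.1 at the other Alg5 probes. In the NRF2 list the separated genes Gstp1 (0.79) and Sqstm1 (0.86) were both higher, as was Adar (0.6) in the small RNA list. Igbp1, the PP2A-binding protein alpha4 that Mid1 also binds, was the separated gene of its list, at −0.43.

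**Figure D4:**
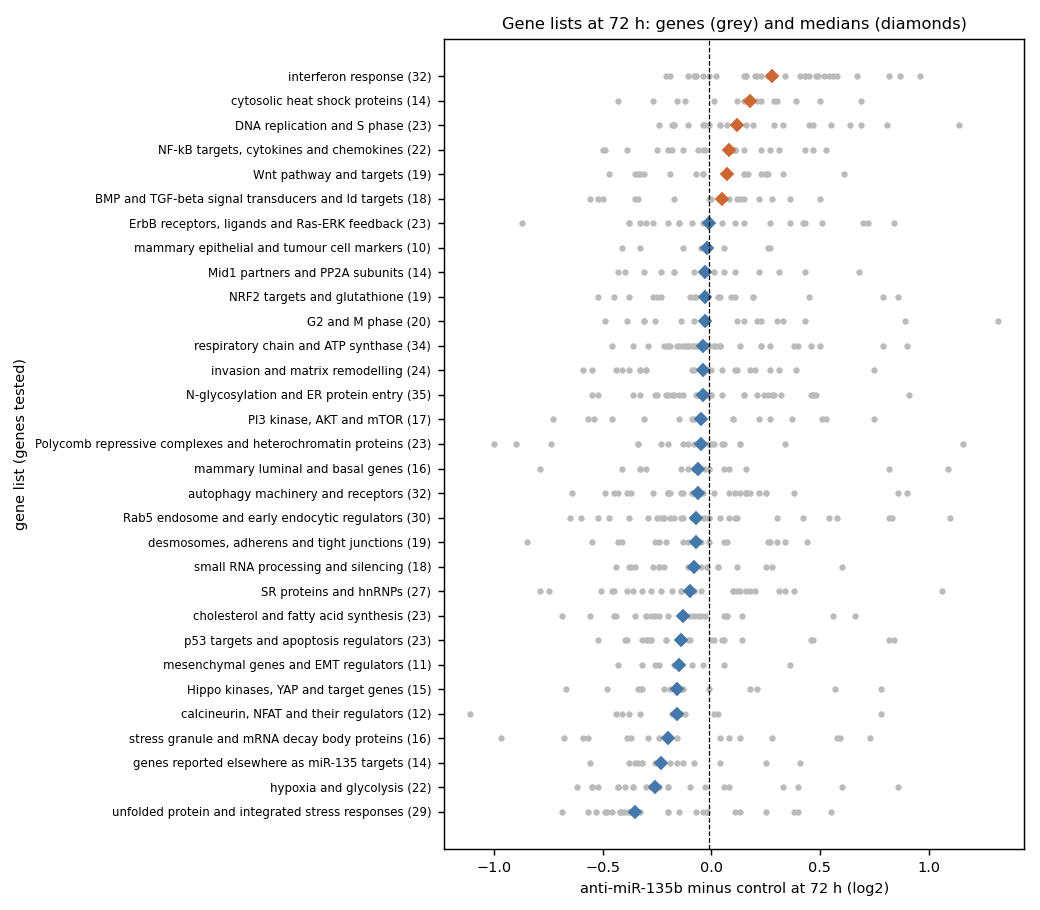
Difference at 72 h (log2) of each measured gene (grey) and the median of its list (diamonds, with the number of genes in brackets), for lists of at least 5 genes; the dashed line is the median of all named genes, −0.01. The interferon list is highest, at 0.28, and the ER stress list lowest, at −0.35.

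Samples of the 2 arms also varied together in inflammatory genes, a pattern noticed after the values were seen. Cxcl1, a neutrophil chemokine, measured 11.68, 15.25 and 14.21 in the controls and 11.05, 14.73 and 14.19 under anti-miR-135b. Control 7 and inhibitor sample 16 were low together, and the arms overlapped. Cxcl5, a related chemokine, measured 6.8, 9.3 and 10.46 against 6.69, 9.54 and 10.63, with the same samples low. Cd14, a co-receptor for lipopolysaccharide that is also a leukocyte marker, measured 13.46, 14.89 and 15.28 against 13.83, 15.33 and 15.21. These samples were the lowest of their arms in 17 of 22 NF-kB genes (77.3%) and 17 of 32 interferon genes (53.1%), against 1623 of 9032 genes overall (18%). Such spread within the arms enters the standard errors, which were 1.09 for Cxcl1 and 1.1 for Cxcl5, against a median of 0.23. Its part in the differences of other genes was not tested.

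**Figure D5:**
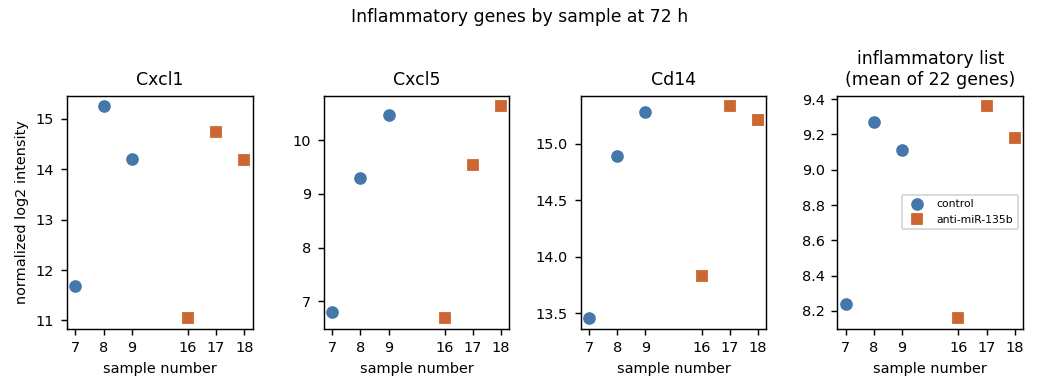
Normalised log2 intensity of Cxcl1, Cxcl5, Cd14 and the mean of the 22 NF-kB genes in each sample at 72 h (circles are controls, squares anti-miR-135b). Control 7 (Cxcl1 at 11.68) and inhibitor sample 16 (11.05) lie below the other samples of their arms, which lie between 14.19 and 15.25.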

How the data were processed

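The authors deposited bead-averaged intensity values, made with GenomeStudio per the submitters' processing notes (version not given in the sources used here), and a table of log2 values with a normalisation that the sources used here do not give. The latter served as an alternative only. Neither background subtraction nor normalisation was found in the intensities, and no detection p-values were used. With limma 3.58.1 in R 4.3.3, all 16 arrays were corrected by normexp (offset 50) and quantile normalised. Probes with a mean above the median of all probes (log2 of 7.1) were kept, 12848 of 25697, for 9032 named genes. Background correction widens and the offset narrows differences of dim probes. A single model of 6 group means (10 residual and 7.8 prior degrees of freedom) gave the contrasts. P-values are two-sided and adjusted by Benjamini-Hochberg over all kept probes, with a threshold of 0.05. The steps were tested on simulated data. The number of arrays limits the precision. Gene names come from the platform annotation, which gives 1 symbol for 23978 probes and none for 1719.

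Named genes were the 10 smallest p per direction with samples that do not overlap, the 5 largest such differences, genes with 2 or more hits in 1 direction (up to 10 per direction), up to 4 members of each list by p, and Mid1, Mtch2, Lemd1, Mir135b and Erbb2. Lemd1 and Mir135b have no probe of that name among those used here. Btrc, Rheb, Snx2, Cxcl1, Cxcl5 and Cd14 (as an inflammatory gene) were chosen after their values were seen. The members and the 35 gene lists (948 entries) were chosen with earlier results of these data known.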

Additional observations from a re-analysis of the deposited data

How the results depend on the processing

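The count of probes called at 72 h, 0 by limma, was 2 without background correction, 2 in the authors' value table, 2 with array weights (an estimate that stopped before it converged), 0 to 1 without 1 sample each (1 without anti-miR-135b sample 18), 0 with a replicate block by label order at 72 h and 58 with that block at all times, which was added after seeing the data. The labels state no pairing, and deviations of samples not matched in label order correlated between −0.45 and 0.21. Other settings kept 0 calls. The 721 separated probes became 1212 of 25697 with no filter (4.72%), 470 of 6424 with a stricter filter (7.32%) and 577 to 1021 without 1 sample each. Lists with a median above 0, 6 of 31, numbered 23 with median scaling and 7 to 11 without 1 sample each (11 without control 7, 10 without inhibitor sample 17). The other 2 Mtch2 probes, at −0.12 and −0.17, reversed, the first to 0.09 with median scaling, 0.04 without control 9 and 0.03 without inhibitor sample 16, and the second to 0.04 and 0.07 without the same samples. Over all samples left out 1 at a time they ran from −0.27 to 0.04 and from −0.39 to 0.07. The cause was not tested. Signal over background could not be measured, since no control probes came with the values used here.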
